A study of Homo sapiens with 4 samples.

Results

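The NFAT (nuclear factor of activated T cells) transcription factors were followed in RNA-seq of Jurkat, a leukemia-derived human T-cell line that is established in culture. The members were the genes carrying the symbols NFATC1, NFATC2, NFATC3, NFATC4 and NFAT5, and all of them were found, as 5 of the 50868 genes listed. The question behind the series was how JQ1, a small molecule that keeps BET proteins from binding acetylated chromatin, alters gene expression in resting and in stimulated T cells, and NFATC1, under its older name NFAT2, was a gene that the study followed. Unmodified (WT) cells were kept for 24 h in the solvent DMSO or in 0.5 μM JQ1, and each of these was run without PHA and with PHA at 150 ng/ml. PHA (phytohemagglutinin) is a plant lectin that cross-links the T-cell receptor and starts calcium signaling. Each of the 4 conditions had 1 library, so no spread between replicates was available, no test between conditions was made, and every interval given below covers counting error only. Reads amplified by PCR without molecular identifiers are not independent molecules, which such intervals leave out.

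In resting T cells the calcium-regulated NFAT proteins, encoded by NFATC1 to NFATC4, are held in the cytoplasm in a phosphorylated form. A rise of calcium activates the phosphatase calcineurin, which removes the phosphates, and NFAT then enters the nucleus and binds DNA together with AP-1 and other partners at genes of cytokines and inhibitory receptors. NFAT5 shares the DNA-binding domain of the family but lacks the calcineurin-binding region, and is best known for the response to hypertonic stress. The abundance of an mRNA, which was measured here, says nothing of where the protein is or whether it is phosphorylated.

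Total counts on genes lay between 18620954 and 19685401 per library. All 8 T-lineage markers checked (the CD3 chains, CD247, CD2, CD7, CD28 and TRAC) were detected in every library, with a summed level of 976 CPM in DMSO, 510 in JQ1, 1457 in DMSO + PHA and 615 in JQ1 + PHA (CPM are counts divided by their library's sum and put on one scale). TRAC had 534 counts in DMSO and 7393 in DMSO + PHA, and CD28 had 1190 and 3557. Of the 8, these 2 were at least 2-fold higher with PHA in DMSO and 0 were lower. The shares of all genes with at least 100 summed counts were 3.16% and 1.29%. The median log2 ratio of the 8 was 0.21 there, so the sum does not describe each marker. The epithelial markers EPCAM and KRT19 were listed at 0, the summed myeloid and erythroid markers stayed at or below 0.691 CPM, and the B-cell marker MS4A1 had 3 counts or fewer in each library. CD79A, also a B-cell marker, had 343, 51, 304 and 46 counts in the same order, and COL1A1, a fibroblast marker, had 92 to 163. The T-lineage sum and CD79A were thus lower in both JQ1 libraries, and their part in the JQ1 ratios of the NFAT genes was not tested. HEXIM1, a gene commonly used as a readout of BET inhibition, was 3.0-fold higher with JQ1, and CD69, an activation marker, was 19.4-fold higher with PHA. MYC, which BET inhibitors lower in many blood cancer lines, had 106 counts in DMSO, 273 in JQ1, 162 in DMSO + PHA and 454 in JQ1 + PHA, and was here higher with JQ1. In bulk RNA, fewer cells of a type and less RNA per cell cannot be told apart.

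NFATC1 lies on the plus strand of chromosome 18 (GRCh38, chr18:79395856-79529325), NFATC2 on the minus strand of chromosome 20 (chr20:51386957-51562831), NFATC3 on the plus strand of chromosome 16 (chr16:68084751-68229259), NFATC4 on the plus strand of chromosome 14 (chr14:24365673-24379604) and NFAT5 on the plus strand of chromosome 16 (chr16:69565094-69704666). The core of the site that NFAT proteins bind is GGAAA, and AP-1 sites have the form TGANTCA. Both were searched on both strands in the 250 bases before each start in the RefSeq promoter table (GRCh38.p14), which holds starts of 4 members and has no entry for NFAT5. The core was present before both starts of NFATC1, before the first of the 2 starts of NFATC2, where it occurred 3 times, and before the first of the 3 starts of NFATC4, while the window before the start of NFATC3 held none. The matches are shown because these genes encode the factors that bind such sites. Each run is 25 bases long and reads 5′ to 3′ on the strand of the gene, with the core, or its reverse complement, in capitals.
NFATC1, first start, 39 bases before it (chr18:79395881-79395905): ggggaggtgtTTTCCagctttaaaa
NFATC1, the second start, 54 bases before it (chr18:79400235-79400259): atgtaaacccGGAAAcgccccgggg
NFATC2, first start, 136 bases before it (chr20:51562961-51562985): gaagtttgcaGGAAAgcccttagtt
NFATC2, first start, 97 bases before it (chr20:51562922-51562946): gatccagtggTTTCCatggcgctgg
NFATC2, first start, 72 bases before it (chr20:51562897-51562921): ataaacaggaGGAAAcagtgaggga
NFATC4, first start, 72 bases before it (chr14:24366829-24366853): ccctcccttcTTTCCccagtcccgt
These letters are common, since 55.6% of the 35116 promoters in the table hold a GGAAA in a window of the same length, so a match describes the sequence and marks no bound site. TGANTCA was in no window of a member and in 6.57% of all promoters, and TGACGTCA, the full cyclic-AMP response element, was in no window of a member and in 1.65% of all promoters. The counts sum over all transcripts of a gene, so transcripts from the alternative starts cannot be told apart.

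Levels of different genes were compared as FPKM (fragments per kilobase of gene length, scaled by the library total), since FPKM is scaled by length. NFATC3, the most abundant member, had an FPKM of 7.90 in the DMSO library, 10.3 under JQ1, 9.57 under DMSO + PHA and 9.55 under JQ1 + PHA. NFATC2 had 4.39, 3.05, 4.98 and 2.90 in the same order. NFAT5 had 1.69, 1.52, 2.13 and 4.56, so that the JQ1 + PHA library stood far above the others. NFATC1 had 0.829, 0.493, 1.78 and 0.689, with its highest value in the DMSO + PHA library. NFATC4 had 0.626, 0.188, 0.553 and 0.125, with both JQ1 libraries low.

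**Figure D1:**
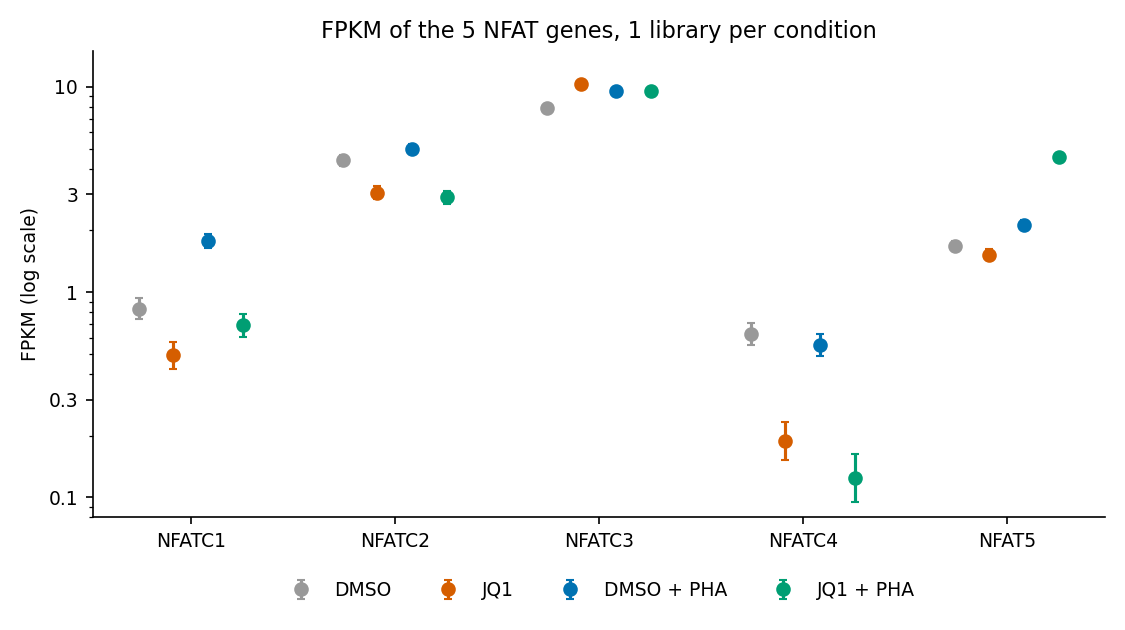
FPKM of each NFAT gene on a log axis, with 1 point per library and bars for the 95% Wilson interval of the count, which covers counting error only. NFATC3 lies highest in every library, NFATC4 drops in both JQ1 libraries, NFATC1 peaks with DMSO + PHA and NFAT5 peaks with JQ1 + PHA.

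The order of FPKM from high to low was NFATC3, NFATC2, NFAT5, NFATC1 and NFATC4 in the DMSO, JQ1 and DMSO + PHA libraries. In the JQ1 + PHA library NFAT5 moved above NFATC2, with 1.57 times its FPKM. The intervals of neighbors in this order did not overlap in any library. In the DMSO library NFATC1 was 1.32 times NFATC4 by FPKM, the closest pair among the low members there. This step rests on the length used. The length implied by the deposited counts and FPKM exceeded the union of the exons for every member, by 1.45 times for NFATC2 up to 2.66 times for NFATC4, which had 22421 against 8437 bases. For NFATC1, NFATC3 and NFATC4 it lay near the sum of all distinct annotated exons, in which overlapping exon variants are counted repeatedly, while for NFATC2 (12053 against 16542 bases) and NFAT5 (38861 against 52935 bases) it was shorter than that sum. With the union of exons, NFATC4 was 1.03 times NFATC1 in the DMSO library, and with the canonical transcript NFATC1 passed NFAT5 in the DMSO + PHA library. Other places in the order were the same with all 3 lengths. Among the 13312 genes with at least 100 counts summed over the libraries, all members included, the share with a lower FPKM was 69.8% for NFATC3 and 10.7% for NFATC4 in the DMSO library. Each member also had 379 counts or more without its highest library, so that none passed this filter through a single condition.

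The summed FPKM of the family was 15.4 in the DMSO library, 15.5 under JQ1, 19.0 under DMSO + PHA and 17.8 under JQ1 + PHA. Not divided by length, the summed counts were 298 CPM in DMSO, 305 under JQ1, 369 under DMSO + PHA and 409 under JQ1 + PHA. With PHA the JQ1 library was thus lower by FPKM and higher by CPM. The summed FPKM differed little with JQ1, while its make-up shifted. NFATC3 took 51.2% of the sum in the DMSO library and 66.1% with JQ1, and NFATC2 took 28.4% and 19.7%. With PHA, NFATC2 took 26.2% in DMSO and 16.3% in JQ1. NFAT5 held 10.9%, 9.82% and 11.2% in the DMSO, JQ1 and DMSO + PHA libraries and 25.6% in the JQ1 + PHA library. NFATC1 held 9.36% under DMSO + PHA and 3.86% under JQ1 + PHA, and NFATC4, the smallest share by FPKM in every library, held 0.699% under JQ1 + PHA. With the union of exons, NFAT5 was 24.8% of the family in the JQ1 + PHA library.

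**Figure D2:**
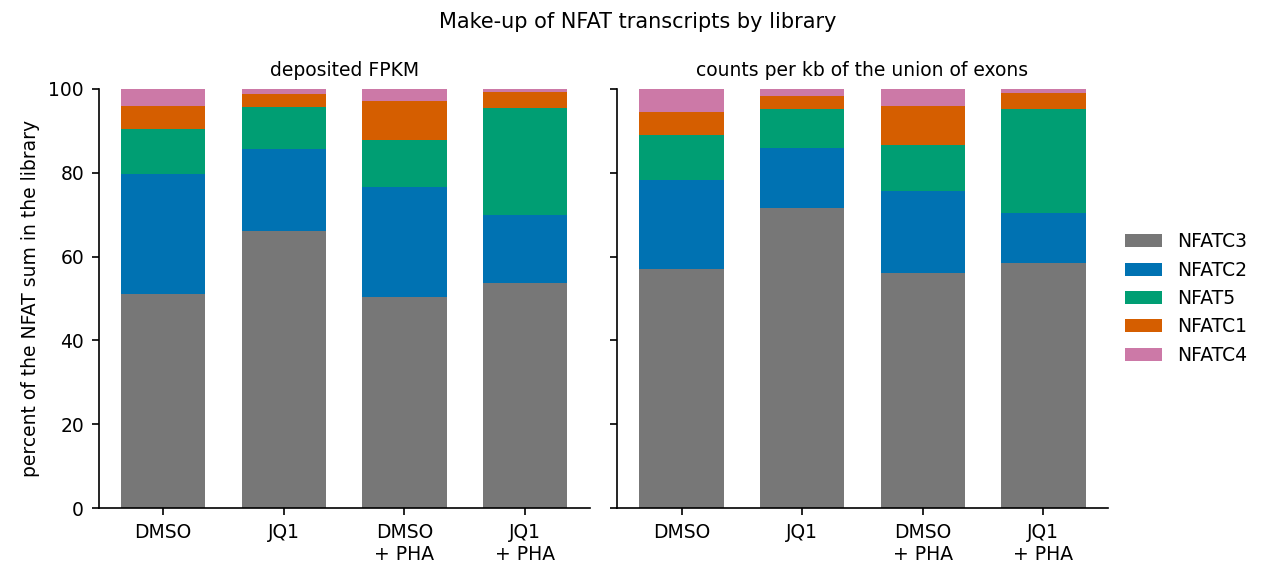
Share of each member in the summed NFAT level of each library, in percent, from the deposited FPKM (left) and from counts per kilobase of the union of exons (right). NFATC3 is the largest share in every library on both scales, and the share of NFAT5 is largest in the JQ1 + PHA library, at 25.6% on the left.

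NFATC1 encodes the member that T cells make in larger amounts once they are activated. Its count was 275 in the DMSO library, 171 under JQ1, 618 under DMSO + PHA and 226 under JQ1 + PHA. PHA without JQ1 gave a 2.15-fold higher share of counts, a log2 ratio of 1.10 (95% exact interval 0.90 to 1.31). JQ1 gave a log2 ratio of -0.75 (-1.03 to -0.47) in unstimulated cells and of -1.37 (-1.60 to -1.15) in stimulated cells, the latter a 2.59-fold lower share. The level with JQ1 + PHA lay close to that in the untreated DMSO library, at a log2 ratio of -0.27 (-0.53 to -0.01). PHA within JQ1 gave 0.48 (0.19 to 0.78).

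NFATC2 encodes NFAT1, the member that resting T cells already hold. With 995 counts in DMSO, 724 in JQ1, 1182 in DMSO + PHA and 650 in JQ1 + PHA, both JQ1 libraries lay below both DMSO libraries. The JQ1 log2 ratio was -0.52 (-0.66 to -0.38) without PHA and -0.78 (-0.92 to -0.64) when stimulated. PHA changed it little, at 0.18 (0.06 to 0.31) in DMSO and -0.08 (-0.23 to 0.08) in JQ1.

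NFATC3 encodes NFAT4, a member found in thymocytes and many other cells. It had 2831 counts in DMSO, 3852 in JQ1, 3590 in DMSO + PHA and 3389 in JQ1 + PHA. The DMSO library was the lowest, and the other libraries lay within a narrow range. On the log2 scale JQ1 gave 0.38 (0.31 to 0.45) in unstimulated and -0.00 (-0.07 to 0.07) in stimulated cells, and PHA gave 0.28 (0.21 to 0.35) in DMSO and -0.11 (-0.17 to -0.04) in JQ1. It was the only member with a higher share under JQ1 alone. RP11-96D1.10, annotated over an exon of NFATC3, had 74 to 96 counts, and adding them left each ratio within the interval given.

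NFATC4 encodes NFAT3, which is better known from heart and nervous tissue than from T cells. Its counts were 264 in DMSO, 83 in JQ1, 244 in DMSO + PHA and 52 in JQ1 + PHA, so both JQ1 libraries lay far below both DMSO libraries. The JQ1 log2 ratio was -1.73 (-2.11 to -1.37) without PHA and -2.15 (-2.61 to -1.71) with it. These are shares 3.33-fold and 4.44-fold lower. PHA gave -0.18 (-0.44 to 0.08) in DMSO and -0.59 (-1.12 to -0.08) in JQ1.

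NFAT5, the osmotic-stress member, had 1234 counts in DMSO, 1166 in JQ1, 1632 in DMSO + PHA and 3298 in JQ1 + PHA. The JQ1 + PHA library thus stood apart, and neither treatment alone came near it. JQ1 alone gave a log2 ratio of -0.15 (-0.26 to -0.03) and PHA alone 0.34 (0.23 to 0.45). JQ1 in stimulated cells gave 1.10 (1.01 to 1.18), PHA in JQ1-treated cells gave 1.58 (1.48 to 1.68), and both treatments against DMSO gave 1.43 (1.34 to 1.53), a 2.70-fold higher share. RP11-311C24.1, annotated on the same strand in the last part of NFAT5, had 93, 2, 5 and 20 counts in the same order of libraries, and adding them to NFAT5 left its ratios in the 4 comparisons of single treatments within the intervals given. Both treatments against DMSO then gave 1.34 in place of 1.43, marginally below the lower limit before rounding.

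**Figure D3:**
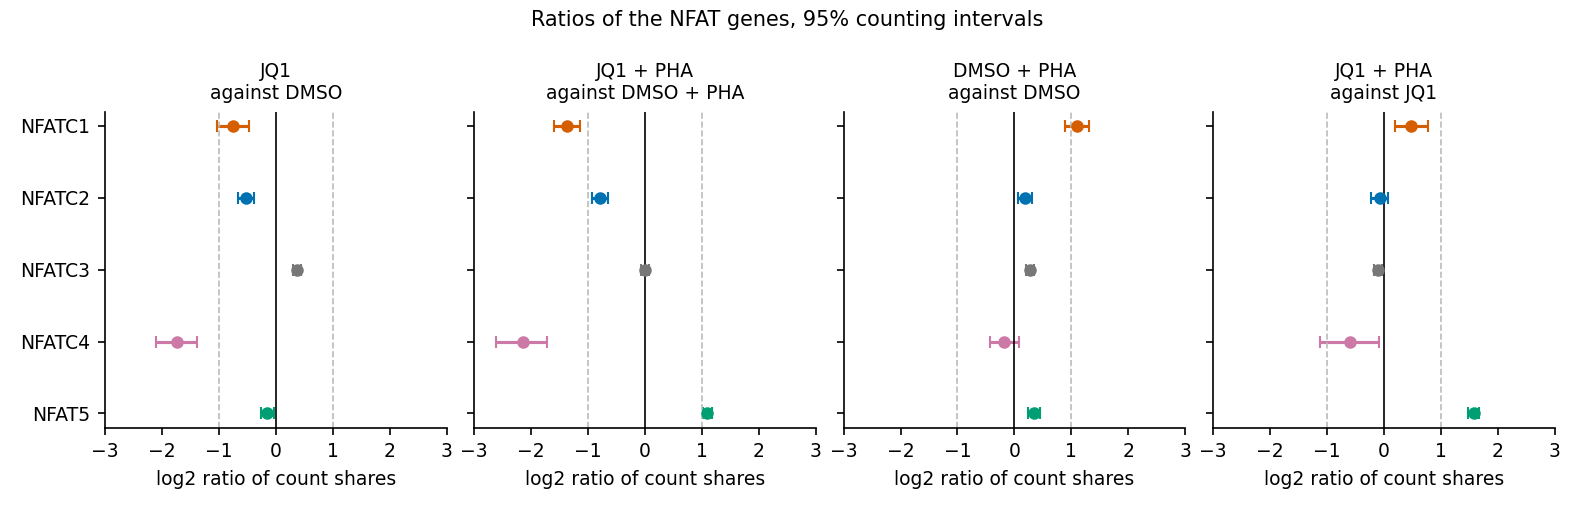
Log2 ratio of the share of counts of each member in the 4 comparisons, with 95% exact intervals that cover counting error only and dashed lines at 2-fold. NFATC4 lies beyond 2-fold lower in both JQ1 comparisons, NFATC1 beyond 2-fold lower only with PHA present, and NFAT5 beyond 2-fold higher in the comparisons of JQ1 + PHA with DMSO + PHA and with JQ1.

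JQ1 against DMSO left 0 of the 5 members at least 2-fold higher, beside 6.38% of all 13312 genes, and 1 of 5 (NFATC4) at least 2-fold lower, beside 12% of all genes. The counting interval excluded 0 for 5 of 5 members, 1 of them higher and 4 lower, which is read beside 75.3% of all genes. The median log2 ratio was -0.52 over the members and -0.04 over all genes. NFATC4 had 4.44% of all genes below it, NFATC1 17.4% and NFATC3 74.4%.

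JQ1 + PHA against DMSO + PHA left 1 of 5 members (NFAT5) at least 2-fold higher, beside 4.46% of all genes, and 2 of 5 (NFATC1 and NFATC4) at least 2-fold lower, beside 11.7%. The interval excluded 0 for 4 of 5 members and for 73% of all genes, so the member count on this measure was near the background. The members spanned most of the distribution, from NFATC4 with 2.85% of all genes below it and NFATC1 with 6.85% to NFAT5 with 96.3%. Their median was -0.78 against -0.06 for all genes.

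DMSO + PHA against DMSO left 1 of 5 members (NFATC1) at least 2-fold higher, beside 3.16% of all genes, and 0 at least 2-fold lower, beside 1.29%. The interval excluded 0 for 4 of 5 members, all higher, beside 48.7% of all genes, and 97.3% of all genes lay below NFATC1. The median was 0.28 over the members and 0.00 over all genes. JQ1 + PHA against JQ1 left 1 of 5 (NFAT5) at least 2-fold higher, beside 1.68% of all genes, and 0 at least 2-fold lower, beside 1.37%. Here the interval excluded 0 for 4 of 5 members, 2 higher and 2 lower, beside 30.5% of all genes. NFAT5 had 99.3% of all genes below it in this comparison.

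The JQ1 ratio with PHA minus that without PHA was then computed for each member from all 4 counts. For NFAT5 the difference was 1.24 on the log2 scale (95% exact interval 1.10 to 1.39), a 2.36-fold higher JQ1 ratio when PHA was present, and 98.4% of all genes lay below it. NFATC1 had -0.62 (-0.98 to -0.26), NFATC3 -0.38 (-0.48 to -0.28) and NFATC2 -0.26 (-0.46 to -0.06). NFATC4 had -0.42 (-1.01 to 0.17), an interval that includes 0, so its low count left the direction undetermined at this depth. By this measure 1 of 5 members was at least 2-fold more positive with PHA, beside 2.49% of the 13280 genes with a value, and 0 were at least 2-fold more negative, beside 4.09%. NFAT5 was the only member with a positive difference.

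**Figure D4:**
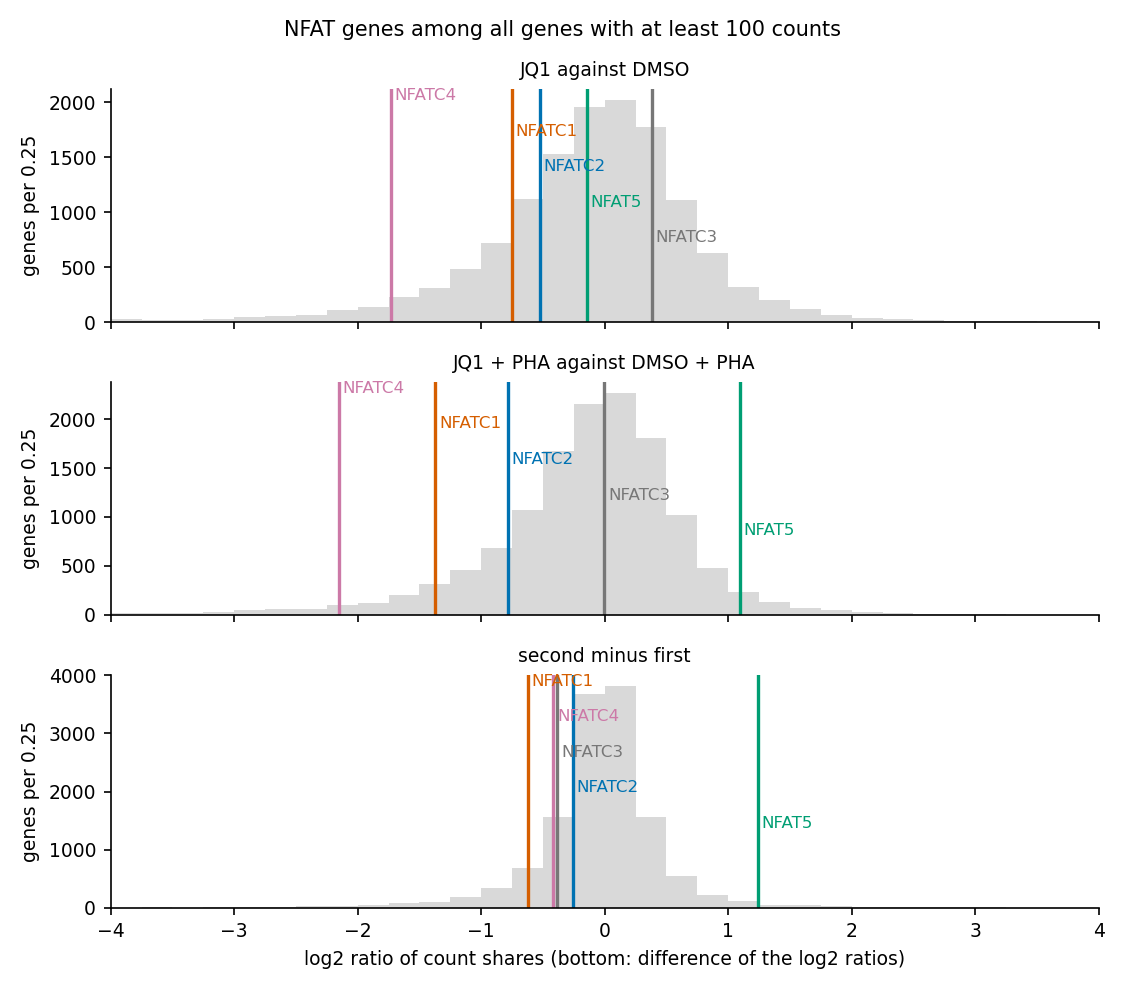
Histograms of the log2 ratios of all genes with at least 100 counts, in bins of 0.25, for JQ1 without PHA (top), JQ1 with PHA (middle) and the difference of those ratios (bottom), with a line for each NFAT gene. NFAT5 is near the center of the top histogram, at -0.15, and in the right tails of the others, at 1.10 and 1.24.

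The members were also set against each other within each library, where the scaling of libraries cancels. The change of the count ratio of a pair had an interval excluding 0 in 9 of 10 pairs for JQ1 against DMSO, in 10 of 10 for JQ1 + PHA against DMSO + PHA, and in 7 of 10 for each of the PHA comparisons. For single genes the interval excluded 0 in 75.3% and 73% of all genes for JQ1, and in 48.7% and 30.5% for PHA. The pairs share members, and no such share was computed for pairs of other genes. These pair counts are therefore not read as a trait of the family. The pair that JQ1 alone did not separate was NFATC1 and NFATC2, with a log2 change of -0.23 (-0.54 to 0.09). With PHA present the same pair changed by -0.59 (-0.86 to -0.32), so NFATC1 was then lower relative to NFATC2. The widest divergence was between NFATC4 and NFAT5 with PHA present, at -3.25 (-3.71 to -2.80), a 9.48-fold change of their ratio. NFATC1 against NFAT5 changed by -2.47 (-2.71 to -2.23), or 5.53-fold, in that comparison. NFATC3 had 2.29 counts for each count of NFAT5 in the DMSO library, 3.30 under JQ1, 2.20 under DMSO + PHA and 1.03 under JQ1 + PHA. NFATC2 and NFATC3 kept nearly the same ratio under PHA, with changes of -0.09 (-0.24 to 0.05) in DMSO and 0.03 (-0.14 to 0.20) in JQ1.

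The profile of each member over the 4 libraries was compared with 11273 genes that had at least 50 counts in every library, by the root mean square difference of the centered log2 shares. Among the members themselves the closest pair was NFATC2 and NFATC3 at 0.42, followed by NFATC1 and NFATC2 at 0.43, and the farthest was NFATC4 and NFAT5 at 1.44. Nearest to NFAT5 were RQCD1 at 0.094, CYP26B1 at 0.12 and OXSM at 0.15. RQCD1 had 1086, 1006, 1660 and 2920 counts with DMSO, JQ1, DMSO + PHA and JQ1 + PHA, so it too was highest in the JQ1 + PHA library. Nearest to NFATC1 were KIAA1549 at 0.076, LPAR5 at 0.083 and LRP10 at 0.10, to NFATC2 IQCG, B3GNTL1 and PDP2 at 0.018 to 0.028, to NFATC3 SEPTIN6, BCL10 and BRWD3 at 0.014 to 0.015, and to NFATC4 BSPRY at 0.062, SUMO3 at 0.076 and DCTPP1 at 0.11. How many genes lay within a given distance of a member was not counted, and with 4 libraries the likeness is a description only.

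Upstream of NFAT, calcium leaves the endoplasmic reticulum through IP3 receptors, and STIM sensors then open ORAI channels in the plasma membrane. Of 9 genes of calcium entry, 8 had at least 100 counts, and under JQ1 alone 3 were at least 2-fold higher and 1 lower, beside 6.38% and 12% of all genes. With PHA present 1 was higher and 1 lower, beside 4.46% and 11.7%. STIM1 had 1110, 2672, 2168 and 2707 counts with DMSO, JQ1, DMSO + PHA and JQ1 + PHA, so the DMSO library was the lowest. Its JQ1 log2 ratio was 1.20 without and 0.40 with PHA. STIM2 had 667, 1673, 646 and 1435, and its JQ1 ratio was 1.26 without and 1.23 with PHA. The channel genes diverged. ORAI1, the main channel subunit of T cells, had 181, 459, 329 and 405 counts and a JQ1 ratio of 1.28 without PHA and 0.38 with PHA, while ORAI2 had 935, 385, 855 and 338 and ratios of -1.34 and -1.26. The median of the list was 0.69 without and 0.43 with PHA, beside -0.04 and -0.06 for all genes.

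Calcineurin consists of a catalytic and a regulatory subunit and is switched on by calmodulin. Of 8 such genes 7 had at least 100 counts, 3 were at least 2-fold higher under JQ1 alone and 1 was so with PHA, beside 6.38% and 4.46% of all genes, and 0 were 2-fold lower in either, beside 12% and 11.7%. PPP3CA, a catalytic subunit, had 330, 744, 387 and 707 counts with DMSO, JQ1, DMSO + PHA and JQ1 + PHA, with JQ1 log2 ratios of 1.11 without and 0.95 with PHA. CALM3, a calmodulin gene, had ratios of 1.21 and 0.56. The JQ1 libraries were the higher ones for this pair, whereas the subunit genes PPP3CC, at -0.16 and -0.21, and PPP3R1, at -0.03 and -0.11, had ratios near 0 or below it. The median of the list was 0.79 without and 0.56 with PHA. PPP3R2, the testis form of the regulatory subunit, was listed at 0. Of 7 genes of calcineurin inhibitors and scaffolds, 6 had at least 100 counts, and 2 were at least 2-fold lower with JQ1 both without and with PHA, beside 12% and 11.7% of all genes. AKAP5, which anchors calcineurin, had 450, 150, 358 and 141 counts, and HOMER3, a scaffold that competes with calcineurin for NFAT, had 136, 51, 191 and 64, so both were low in the JQ1 libraries. RCAN1, a calcineurin inhibitor and itself a known calcineurin target, had 1517, 835, 1193 and 812, at JQ1 ratios of -0.93 and -0.47. The list did not move as a group. RCAN3, at 0.75 without and 0.66 with PHA, and CABIN1, at 0.56 and 0.62, were higher with JQ1. HOMER2 had -0.45 and -0.07. Of 13 genes of NFAT kinases and nuclear transport, such as GSK3B and XPO1, 11 had at least 100 counts and 0 passed 2-fold in any of the 4 comparisons, with medians between 0.02 and 0.54. The shares of all genes higher and lower were 6.38% and 12% for JQ1 and 4.46% and 11.7% for JQ1 with PHA. They were 3.16% and 1.29% for PHA and 1.68% and 1.37% for PHA in JQ1, so 0 of 11 lay near the background there.

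NFAT binds DNA with partners, and 14 of 18 listed partner genes had at least 100 counts. Under JQ1 alone 2 of the 14 (FOS and MAF) were at least 2-fold higher and 1 (BATF) lower, beside 6.38% and 12% of all genes, and with PHA present 1 was higher and 3 were lower, beside 4.46% and 11.7%. BATF, an AP-1 factor, had 148, 45, 108 and 24 counts with DMSO, JQ1, DMSO + PHA and JQ1 + PHA, at JQ1 log2 ratios of -1.78 and -2.09. JUN, the AP-1 subunit, had 171, 328, 118 and 271, the opposite pattern, at ratios of 0.88 and 1.28. EGR1, an immediate early factor that binds beside NFAT at cytokine genes, had 29, 25, 2464 and 400 counts, so it was high only with PHA and lower there with JQ1, at a ratio of -2.54. FOSL2, also of AP-1, had 208, 128, 258 and 111 counts, lower with JQ1 in both pairs, and GATA3, a T-cell lineage factor, had 469, 916, 1041 and 992, with the DMSO library the lowest. FOS had 2, 9, 52 and 43 counts and MAF 3, 36, 70 and 55. Both, with FOSB (19, 34, 28 and 27), had under 100 summed counts when the DMSO + PHA library was left out. No other library was left out for these genes. Their counts in the unstimulated pair are low, and the JQ1 interval of FOS without PHA (-0.17 to 5.35) includes 0, so nothing is drawn from their place in the count above.

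**Figure D5:**
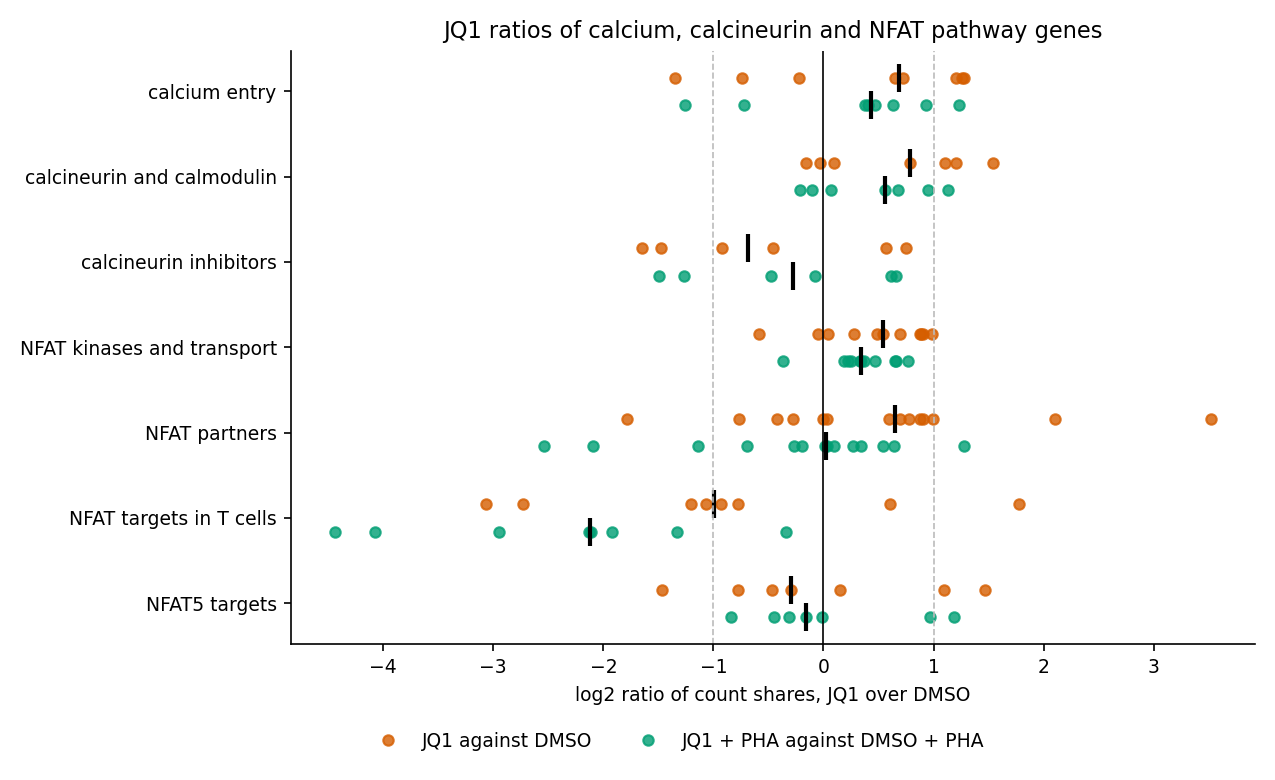
Log2 ratio of JQ1 over DMSO for the genes of 7 lists with at least 100 counts, without PHA and with PHA, with 1 point per gene and a black tick at the median. Calcium entry, calcineurin and kinase genes have medians above 0. The 8 NFAT targets plotted, of 26 listed, have medians of -0.996 without and -2.12 with PHA. Of these, 5 fell below the count minimum without the DMSO + PHA library, so the medians are no measure of the list.

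Among 26 genes known as NFAT targets in T cells, 7 had 0 counts in every library (IL2, IL4, IL21, CSF2, IFNG, CCL3 and CCL4), which at these depths allows up to 0.161 CPM. Only 8 had at least 100 counts, and 5 of these fell below that without the DMSO + PHA library, so their number past 2-fold is no measure of the list. PDCD1, the gene of the inhibitory receptor PD-1, had 8, 1, 356 and 20 counts with DMSO, JQ1, DMSO + PHA and JQ1 + PHA, at a JQ1 log2 ratio of -4.07 with PHA. HAVCR2, the gene of TIM-3, had 36, 22, 108 and 27, at -1.92. Both had their highest count in the DMSO + PHA library, as NFATC1 did. CD40LG, a costimulatory ligand, had 165, 26, 1855 and 81 counts and ratios of -2.73 without and -4.44 with PHA. EGR2 had 2, 1, 157 and 34 counts and EGR3 had 11, 5, 489 and 60. The orphan receptor genes NR4A1 and NR4A3 had 60, 33, 210 and 46 counts and 7, 25, 56 and 21 counts, again with the highest value in the DMSO + PHA library. TOX, a regulator of T-cell exhaustion, had 2666, 4249, 6351 and 4733 counts. For TOX, as for NR4A3, the JQ1 ratio was above 0 without PHA and below 0 with PHA. These comparisons share libraries with those of NFATC1, so likeness between their patterns was not taken as a result.

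NFAT5 is known to drive genes of osmolyte transport and of protein folding under hypertonic stress. Of 9 such genes 7 had at least 100 counts, and 0 of 7 had a JQ1 ratio at least 2-fold more positive or more negative with PHA than without, with differences between -0.28 and 0.63. Of the 13280 genes with a value, 2.49% were at least 2-fold more positive and 4.09% more negative, so 0 of 7 lay near the background. Under JQ1 alone 2 of the 7 were at least 2-fold higher and 1 lower, beside 6.38% and 12% of all genes. With PHA present 1 was higher and 0 were lower, beside 4.46% and 11.7%. The median JQ1 log2 ratio of the list was -0.29 without and -0.16 with PHA. SLC5A3, the myo-inositol transporter, had 3794, 10964, 4760 and 10249 counts with DMSO, JQ1, DMSO + PHA and JQ1 + PHA, so that it was high in both JQ1 libraries, at JQ1 ratios of 1.47 and 1.19. SLC38A2, an amino acid transporter, had 5942, 13261, 6805 and 12588, and ratios of 1.09 and 0.97. AKR1B1, aldose reductase, had 1653, 1410, 1630 and 1377, at -0.29 and -0.16. HSPA1B, a heat shock protein, was lower in both JQ1 libraries, with 558, 211, 405 and 214 counts. So were SLC6A6, with 2329, 1419, 2175 and 1505, and HSPA4L, with 4450, 3367, 3815 and 2912. The log2 ratio of JQ1 + PHA to JQ1 was -0.02 for SLC5A3, 0.00 for SLC38A2, 0.05 for AKR1B1 and 0.10 for HSPA1B, so that the JQ1 + PHA library did not stand above the JQ1 library for these genes as it did for NFAT5.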

How the data were processed

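RNA-seq of 4 Jurkat libraries was used. The authors aligned reads to GRCh38. Hisat2 2.0.4 is named for this in the labels, while the submitters' processing notes list TopHat2 2.0.9 and Cufflinks 2.1.1. The counter, its strand setting and the annotation release are not given in the sources used here, so overlapping genes cannot be told apart. The deposited count per gene is not normalized, and the deposited FPKM are these counts scaled by library total and by a gene length. Over 12579 genes that length had a median ratio of 1.00 to the sum of distinct exons in GENCODE release 44, with 6630 genes within 5% of it, and it exceeded the union of exons by over 10% in 73.8% of genes. FPKM of genes with many exon variants are thereby understated, whereas ratios between libraries are not affected.

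Ratios are of shares of counts, with 95% exact (Clopper-Pearson) intervals, exact conditional odds-ratio intervals for differences and pairs, and Wilson intervals for single libraries. A floor of 3 counts was used. The background was the genes with at least 100 summed counts. Members and gene lists were chosen with earlier results of these data known. From each list at most 4 genes past 2-fold in a comparison, by size, were named, with PDCD1, HAVCR2, HEXIM1, MYC, EGR1 and CD69, and by likeness 3 per member. RCAN1, RCAN3, CABIN1, HOMER2, PPP3CC, PPP3R1, AKR1B1, SLC6A6, HSPA4L, TOX and genes at 0 were named after their values were seen. Alternatives were edgeR 4.0.16 and DESeq2 1.42.0 scaling factors (no model fitted), median centering, FPKM with pseudocounts of 0.1 and 1, FPKM rescaled to a common total, a 1.5-fold threshold and other filters. Overlapping genes and other gene lengths were added after seeing the data. Steps were tested on simulated data. Python 3.11.15, pandas 2.3.3, scipy 1.17.1 and R 4.3.3 were used. Some results are left out because they need items withheld for evaluation.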

Additional observations from a re-analysis of the deposited data

Results flagged for a closer look

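For NFATC3 and NFAT5 the same treatment pointed in opposite directions in the 2 backgrounds, with 1 library each, and the differences were not tested across replicates. NFATC3 had a log2 ratio of 0.28 for PHA in DMSO and of -0.11 for PHA in JQ1. NFAT5 had -0.15 for JQ1 without PHA and 1.1 for JQ1 with PHA. No group had enough libraries for a check of outlying samples.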

How the results depend on the processing

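No paired analysis was possible because each condition had 1 library, and for the same reason no replicate could be left out. With TMM factors, DESeq2 size factors, median centering or the counts of overlapping genes added, 25 of 25 member values stayed within their counting intervals. The scalings moved the median of all genes by less than 0.1. With FPKM and a pseudocount of 0.1, 23 of 25 stayed, and NFATC4 had -1.33 without and -1.54 with PHA (-1.28 and -1.53 after rescaling to a common total). A pseudocount of 1 moved 11 of 25 values toward 0 and left 0 members past 2-fold where there had been 1 lower under JQ1, 1 higher and 2 lower under JQ1 with PHA, 1 higher under PHA and 1 higher in the difference of JQ1 ratios. At 1.5-fold, 2 members were lower under JQ1, and 1 was lower under PHA in JQ1 and 1 in the difference, where there had been 0. A filter on mean FPKM, at 1 or above, left 3 members, without NFATC1 and NFATC4, and 0 past 2-fold lower under JQ1 without or with PHA or higher under PHA.

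Genes past 2-fold, higher and lower, numbered 849 and 1594 for JQ1, 594 and 1552 for JQ1 with PHA, 420 and 172 for PHA, 223 and 182 for PHA in JQ1, and 331 and 543 for the difference. In this order the counts were 291 and 577, 208 and 548, 133 and 57, 54 and 58, and 100 and 179 with a pseudocount of 1, 2138 and 3033, 1683 and 2902, 1020 and 573, 538 and 514, and 859 and 1271 at 1.5-fold, and 3635 and 5312, 3198 and 5582, 3670 and 2880, 2871 and 2762, and 1321 and 1700 without a filter. With the filter on mean FPKM, the lower genes numbered 1055, 986 and 356 for JQ1, JQ1 with PHA and the difference, and the higher ones 266 for PHA and 139 for PHA in JQ1. With a pseudocount of 0.1 the latter comparison had 139 higher and 121 lower, and 137 higher after rescaling.

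The shares of the family depend on the length. In the JQ1 + PHA library NFAT5 was 25.6% by FPKM, 24.8% by the union of exons, 26.8% by the canonical transcript and 43.3% of undivided counts, and NFATC2 in the DMSO library was 28.4%, 21.3%, 16.9% and 17.8%. With 52 to 264 counts NFATC4 is the member whose values depth limits most.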
